A study of Mus musculus with 15 samples.

Results

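The 38 genes described here are general macrophage genes: genes that tissue macrophages express as part of their identity, genes of their activation and scavenging, and genes that they share with other white blood cells. They were taken by symbol from a fixed list, and all 38 were measured, each by 1 probe set, among 21439 genes on the array. By textbook role, 14 were placed in a core identity class, 12 in an activation class and 12 in a shared leukocyte class. Levels are deposited log2 values, on which the signal of each probe set can be compared between arrays. The median level over all genes and arrays was 2.44. The medians of single arrays over all probe sets lay between 1.55 and 1.64, and a gene at or under 1.64 is called at the floor.

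RNA came from whole adrenal glands of wild-type C57BL/6J male mice, labelled as 6 weeks old in every group. Control glands (4 arrays) were taken from mice that had not yet received dexamethasone, a synthetic glucocorticoid. Withdrawal glands (3 arrays) were taken when 14 days of dexamethasone in the drinking water ended, and the day 3 glands (4 arrays) and day 7 glands (4 arrays) came from mice that had then gone without the drug for 3 or 7 days. The study followed how the gland recovers after the drug. All 15 arrays are titled as biological replicates, and nothing more is said of their source, so that p-values measure the spread between these arrays. No untreated mice were taken at the later times, so that the drug and the days that passed cannot be told apart in a comparison with control.

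Macrophages are phagocytes that live in most organs, the adrenal included, and clear dying cells, debris and microbes. Their survival depends on the receptor Csf1r, which binds the growth factors Csf1 and Il34, and their gene program on the transcription factor PU.1, the product of Spi1. Fc receptors and other surface receptors signal through the adaptors Fcer1g and Tyrobp (DAP12) to the kinase Syk. Glucocorticoids such as dexamethasone act on macrophages as well as on the pituitary and, through it, on the adrenal cortex.

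The arrays were alike over all genes, with a mean correlation to the others of the group between 0.987 and 0.991. In some of them many members stood higher or lower than in the rest of the group. The day 3 replicate 2 array was the highest of its group for 24 of the 38 members, and day 7 replicate 3 for 25. Withdrawal replicate 2 was the highest of its group of 3 for 21. Withdrawal replicate 3 was the lowest of its group for 22 members and day 7 replicate 2 for 20. In day 3 replicate 2 some neutrophil genes were also far higher than in the other day 3 arrays: S100a8, a calprotectin subunit of neutrophils, read 7.69 there and 2.89 to 3.50 in the others, and Camp, a neutrophil granule gene, read 5.43 there and 0.94 to 1.37 in the others. Of the 9 neutrophil markers measured, S100a9, Retnlg and Ngp were likewise high there (7.47, 3.15 and 3.09), while Ly6g (1.65), Csf3r (1.41), Cxcr2 (1.42) and Mmp8 (1.02) were not. Day 7 replicate 3 had no such signal, with S100a8 at 2.68. Some results at day 3 and day 7 are therefore also given without day 3 replicate 2 or day 7 replicate 3. The total of members that passed in a comparison with the withdrawal group is also given without withdrawal replicate 2. In these comparisons, counts by class, of higher or lower means and of groups without overlap use all withdrawal arrays. In whole-gland RNA, more macrophages and more macrophage RNA per cell cannot be told apart.

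The promoters of 4 members are shown because they hold the 7-letter motif that PU.1, the product of the member Spi1, binds. They have the largest differences between withdrawal and control among the members with a match, and that of Itgam did not pass the test (adjusted p 0.0730). Each is printed 5′ to 3′ on the strand of its gene, from RefSeq on GRCm38.p6, with the match in capitals.
Wfdc17: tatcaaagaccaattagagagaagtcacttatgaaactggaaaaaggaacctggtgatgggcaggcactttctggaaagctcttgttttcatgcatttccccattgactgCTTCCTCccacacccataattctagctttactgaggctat
Cd53: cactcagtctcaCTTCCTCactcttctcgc
Laptm5: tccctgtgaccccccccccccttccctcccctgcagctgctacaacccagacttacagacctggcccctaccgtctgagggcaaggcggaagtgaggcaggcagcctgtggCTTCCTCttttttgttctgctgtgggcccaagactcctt
Itgam: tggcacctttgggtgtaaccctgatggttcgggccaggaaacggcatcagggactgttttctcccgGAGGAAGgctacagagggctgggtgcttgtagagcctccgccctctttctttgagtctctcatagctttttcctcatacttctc
Wfdc17 is shown at chr11:83703906-83704055 (plus strand), Laptm5 at chr4:130913166-130913315 (plus strand) and Itgam at chr7:128062490-128062639 (plus strand), each the 150 bases before the annotated start. Cd53 is shown at chr3:106790125-106790154 (minus strand), 30 bases around its match. Counted from the start, the match shown began at position -40 in Wfdc17, -39 in Laptm5, -84 in Itgam and 8 in Cd53. Itgam held 2 matches, the other one on the opposite strand at position 32, outside the stretch printed. The motif searched was GAGGAAG or, on the other strand, CTTCCTC, in windows of 300 bases (250 before the start and 50 from it). Of the 29 members with a window, 10 (34.5%) held a match, against 4152 of 27025 genes (15.4%), or 13.6% of the 32851 windows counted singly. The classes held 3 of 10 (core identity), 3 of 9 (activation) and 4 of 10 (shared leukocyte). A match describes the letters and is not evidence of binding in these glands.

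At the end of dexamethasone treatment, most macrophage genes were higher than in control glands. Of the 38 members, 23 rose and 0 fell (limma, adjusted p under 0.05), where 2.49% of all genes rose and 1.81% fell. At an unadjusted p under 0.05, 1 member (Cd14) was lower, as were 1558 of 21439 genes. The mean was higher at withdrawal for 37 of 38. For 30 of them every withdrawal array lay above every control array, which held for 8.15% of all genes. The median difference over the members was 0.88, and over all genes -0.01. The rise took in 10 of 14 core identity genes, 5 of 12 activation genes and 8 of 12 shared leukocyte genes, with class medians of 0.68, 0.65 and 1.12. Centring each array on its own median lowered every difference by 0.11 (shift -0.11), left 21 members rising and 0 falling, and changed the split over all genes from 534 rising and 387 falling to 341 and 853 (421 and 462 after a further quantile normalization, with 21 members rising). Leaving out withdrawal replicate 2, the array with the highest value for 21 members, left 15 rises among the members and 243 over all genes.

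**Figure D1:**
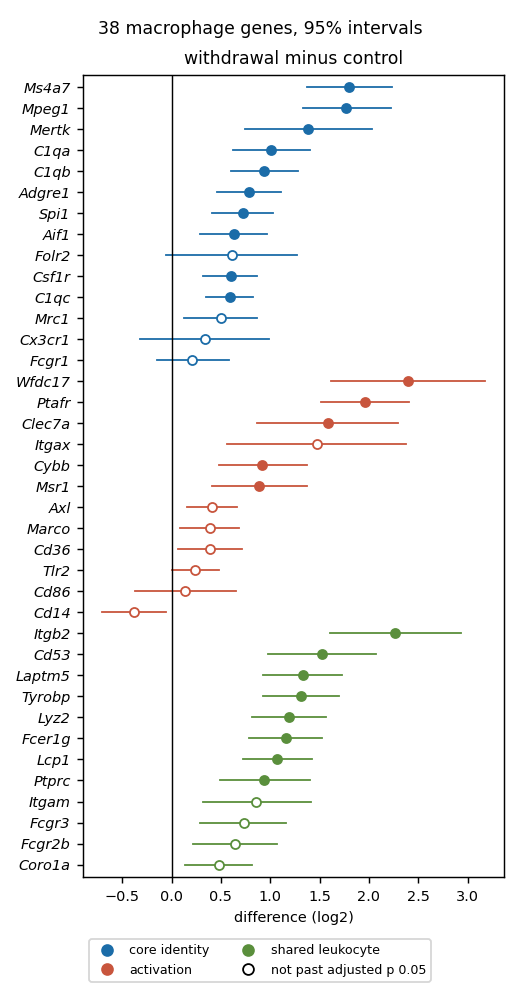
Difference between withdrawal (3 arrays) and control (4 arrays) for each of the 38 members, in log2 units with 95% intervals from the limma model, grouped by class; filled points passed the threshold. All points except Cd14 lie to the right of 0, and Wfdc17, at 2.40, is the farthest.

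Among the core identity genes, Ms4a7, a 4-pass membrane protein found in tissue macrophages, stood furthest from control. It read 5.68, 5.43, 6.10 and 6.08 in the control arrays and 7.65, 7.68 and 7.55 at withdrawal. The groups did not overlap, and Ms4a7 rose by 1.80 ± 0.20 (SE; adjusted p 0.000146, limma), or 3.49-fold. Mpeg1 encodes perforin-2, a pore-forming protein that macrophages turn on engulfed bacteria. It read 4.94, 5.08, 4.90 and 5.05 in control and 6.67, 7.08 and 6.54 at withdrawal, a rise of 1.77 ± 0.21 (adjusted p 0.000232). In both genes the gap between the groups was wider than the range within either of them.

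The 3 chains of C1q, the complement protein that tags dying cells and debris and that macrophages are a main source of, rose together. Their genes are next to each other in the genome (C1qb, C1qc, C1qa in order among protein-coding genes of GRCm38.p6). C1qa read 6.40 to 6.73 in control and 7.36 to 7.85 at withdrawal, and rose by 1.01 ± 0.18 (adjusted p 0.00559). C1qb rose by 0.94 ± 0.16 (adjusted p 0.00349), with 6.96 to 7.41 in control and 7.96 to 8.52 at withdrawal. C1qc rose by 0.59 ± 0.11 (adjusted p 0.00796). No array of one group reached into the other for any of the 3 chains.

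Mertk, a receptor by which macrophages take up apoptotic cells, read 3.57, 3.78, 3.08 and 3.85 in control and 4.89, 5.64 and 4.34 at withdrawal. It rose by 1.38 ± 0.30 (adjusted p 0.0176), and the withdrawal arrays spread over more than 1 log2 unit. Adgre1, an adhesion receptor and standard surface marker of mouse macrophages, rose by 0.79 ± 0.15 (adjusted p 0.00864), with 4.51 to 4.80 in control and 5.20 to 5.63 at withdrawal. Csf1r, the receptor that macrophages need to survive, rose by 0.60 ± 0.13 (adjusted p 0.0169), with 5.19 to 5.54 in control and 5.81 to 6.23 at withdrawal. Spi1 read 4.20, 4.17, 4.05 and 4.27 in control and 5.06, 5.02 and 4.60 at withdrawal, and rose by 0.72 ± 0.15 (adjusted p 0.0117). Aif1, the actin-binding protein Iba1, rose by 0.63 ± 0.16 (adjusted p 0.0361), but not when arrays were centred on their medians (adjusted p 0.0733) or quantile normalized again (adjusted p 0.0502). Aif1 passed in 2 of the 7 fits that left out 1 array, and not in the fit of only the 2 groups (adjusted p 0.0844). The other calls of this paragraph were also sensitive: leaving out 1 array, Adgre1 passed in 6 of 7 fits, Csf1r and Spi1 in 5 and Mertk in 4. With only the 2 groups, Csf1r (adjusted p 0.0653) and Mertk (adjusted p 0.0547) did not pass. The canonical identity genes Adgre1, Csf1r and Spi1 thus each differed by less than 1 log2 unit, below Ms4a7 and Mpeg1.

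The other 4 core identity genes did not pass. Fcgr1, the high-affinity IgG receptor CD64, read 4.61 to 5.28 in control and 4.85 to 5.48 at withdrawal (difference 0.21 ± 0.17, adjusted p 0.593). Cx3cr1, the receptor of the chemokine Cx3cl1, read 5.40, 5.52, 5.40 and 5.45 in control and 6.27, 5.19 and 5.88 at withdrawal (0.34 ± 0.31, adjusted p 0.649). The control arrays of Cx3cr1 were nearly equal and the withdrawal arrays lay on both sides of them. Folr2, a folate receptor of resident macrophages, read 2.51 to 3.26 in control and 4.45, 3.16 and 2.80 at withdrawal, with 1 array high (0.61 ± 0.31, adjusted p 0.347). Mrc1, the mannose receptor, differed by 0.50 ± 0.17 without overlap between the groups (adjusted p 0.137). The 95% intervals ran up to 0.58 for Fcgr1, 0.99 for Cx3cr1, 0.87 for Mrc1 and 1.27 for Folr2, so that differences of the size seen in Csf1r lay within 3 of the 4.

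The activation class was the most uneven. Wfdc17, a small secreted protein of activated macrophages, showed the largest rise of all members. It read 5.54, 6.48, 5.40 and 5.53 in control and 8.41, 8.29 and 7.70 at withdrawal, a rise of 2.40 ± 0.37 (adjusted p 0.00166), or 5.26-fold. Ptafr, the receptor for platelet-activating factor, read 3.58, 3.75, 3.09 and 3.19 in control and 5.19, 5.78 and 5.11 at withdrawal, and rose by 1.96 ± 0.21 (adjusted p 0.000114). Clec7a (dectin-1), a receptor for fungal glucans, rose by 1.59 ± 0.34 (adjusted p 0.0146), with 3.79 to 4.11 in control and 5.13 to 5.93 at withdrawal. Clec7a passed in 5 of the 7 fits that left out 1 array. In these 3 genes the lowest withdrawal array was more than 1 log2 unit above the highest control array, replicate 2 of the Wfdc17 controls at 6.48 included.

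Cybb and Msr1 passed the threshold although their groups overlapped or met. Cybb, the membrane subunit of the oxidase that makes superoxide, read 5.66, 6.45, 5.53 and 5.61 in control and 6.82, 6.94 and 6.45 at withdrawal (0.92 ± 0.21, adjusted p 0.0200). Msr1, scavenger receptor A, read 4.23, 3.84, 3.37 and 3.38 in control and 4.62, 4.08 and 5.08 at withdrawal (0.89 ± 0.23, adjusted p 0.0376). Both calls were lost in 5 of the 7 fits that left out 1 array, and that of Msr1 also after centring (adjusted p 0.0596).

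The other 7 activation genes did not pass. Cd14, the co-receptor for bacterial lipopolysaccharide, was the 1 member with a lower mean at withdrawal: it read 4.75, 4.70, 4.97 and 5.0 in control and 4.73, 4.55 and 4.16 at withdrawal, with overlap (-0.38 ± 0.15, adjusted p 0.205). Tlr2, a receptor for bacterial lipoproteins that works with Cd14, read 4.03 to 4.31 and 4.22 to 4.53 (0.24 ± 0.11, adjusted p 0.283). Cd86, which costimulates T cells, read 1.71 to 2.19 and 1.99 to 2.43 (0.14 ± 0.24, adjusted p 0.836). Cd14, Tlr2 and Cd86 thus overlapped between the groups. Clec7a above rose. Of the 6 genes measured in the Toll-like receptor list below, 1 rose (Tlr7) and 5 did not pass. Itgax, the integrin CD11c, read 2.24, 2.62, 1.90 and 2.29 in control and 3.11, 4.74 and 3.34 at withdrawal. Its groups did not overlap and its difference was 1.47 ± 0.42 (adjusted p 0.0672). Axl, a receptor tyrosine kinase of the same family as Mertk, differed by 0.41 ± 0.12 without overlap (adjusted p 0.0622). When only genes above the floor in all arrays of a group were tested, Itgax (adjusted p 0.0442) and Axl (adjusted p 0.0393) passed. The scavenger receptor Cd36, which adipocytes and endothelium also express, differed by 0.39 ± 0.15 (adjusted p 0.189). Marco, another scavenger receptor, had group means at the floor in control, day 3 and day 7 and 1.84 at withdrawal (0.39 ± 0.14, adjusted p 0.149).

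**Figure D2:**
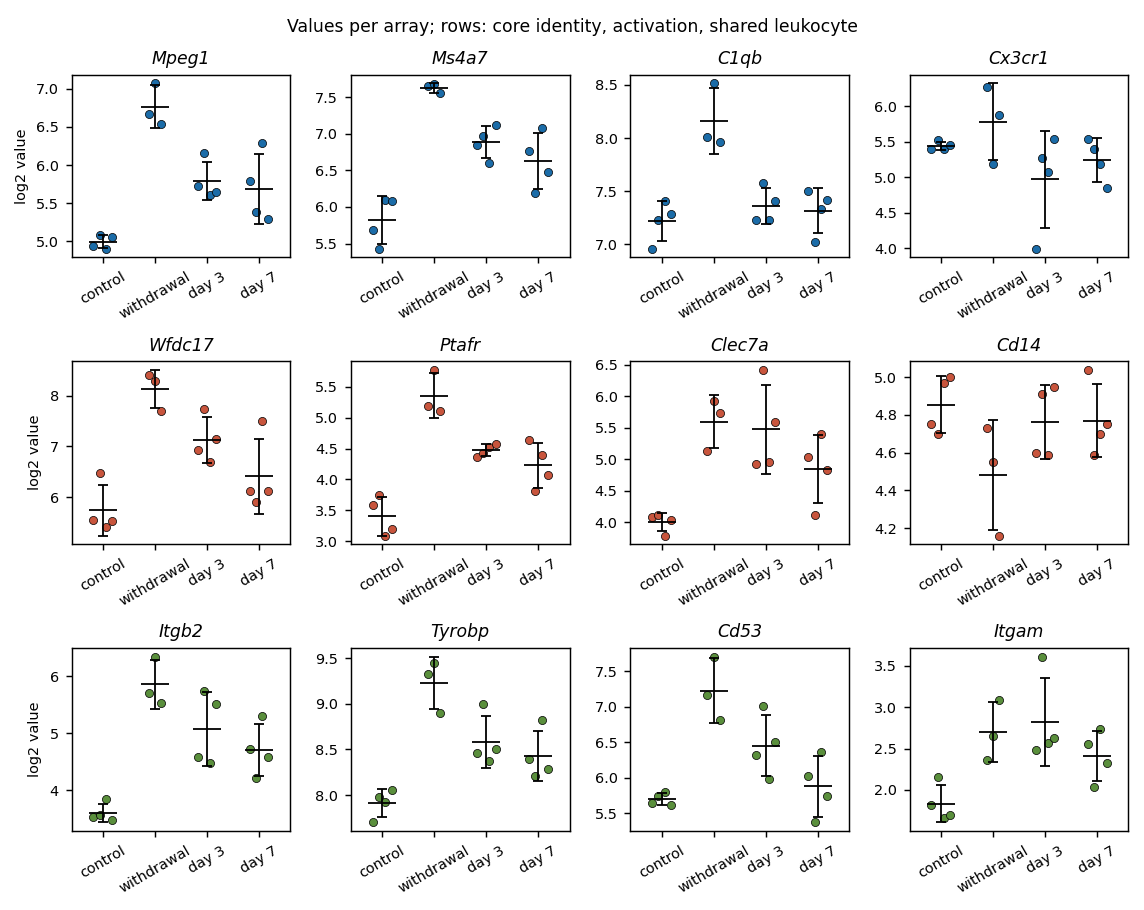
Deposited log2 level of 12 members on each of the 15 arrays, by group, with core identity genes in the top row, activation genes in the middle and shared leukocyte genes at the bottom; each point is 1 array, the long bar the group mean and the whiskers the SD, and the y axes differ and do not start at 0. Ms4a7, Mpeg1, Ptafr and Wfdc17 lie above all control arrays at withdrawal, while Cd14 overlaps between every pair of groups.

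The shared leukocyte class had the largest median difference. Itgb2, the beta chain (CD18) of the leukocyte integrins, read 3.52, 3.56, 3.84 and 3.47 in control and 5.71, 6.35 and 5.53 at withdrawal. It rose by 2.27 ± 0.31 (adjusted p 0.000661), or 4.81-fold. The alpha chains that pair with it, Itgam (CD11b) and Itgax, are next to each other in the genome. Itgam read 1.82, 2.16, 1.66 and 1.70 in control, close to the floor, and 2.36, 2.65 and 3.08 at withdrawal. Its groups did not overlap and its difference of 0.86 ± 0.25 did not pass (adjusted p 0.0730; 0.0479 with the filter on dim genes).

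Cd53, a tetraspanin of white blood cells, rose by 1.53 ± 0.25 (adjusted p 0.00327), with 5.62 to 5.80 in control and 6.81 to 7.71 at withdrawal. Laptm5, a lysosomal protein of blood cells, rose by 1.33 ± 0.19 (adjusted p 0.000862), with 5.50 to 5.75 in control and 6.58 to 7.30 at withdrawal. The adaptors Tyrobp and Fcer1g rose by 1.31 ± 0.18 (adjusted p 0.000661) and 1.16 ± 0.17 (adjusted p 0.00136). Tyrobp read 7.70, 7.98, 7.92 and 8.05 in control and 9.33, 9.45 and 8.90 at withdrawal. Lyz2, the lysozyme of phagocytes, rose by 1.19 ± 0.18 (adjusted p 0.00127), with 8.34 to 8.71 in control and 9.55 to 9.75 at withdrawal; whether its probes also read the near-identical Lyz1 was not tested. The actin bundler Lcp1 (L-plastin) rose by 1.07 ± 0.17 (adjusted p 0.00184). Ptprc (CD45), the phosphatase of all white blood cells, rose by 0.94 ± 0.21 (adjusted p 0.0199) and passed in 4 of the 7 fits that left out 1 array. In these 7 genes, as in Itgb2, every withdrawal array lay above every control array.

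The IgG receptors of low affinity did not pass. Fcgr3, an activating receptor that uses the adaptor Fcer1g, differed by 0.73 ± 0.20 (adjusted p 0.0589) and passed with the filter (adjusted p 0.0381). Fcgr2b, the inhibitory IgG receptor, read 1.52 to 1.91 in control, near the floor, and 2.13 to 2.84 at withdrawal (0.64 ± 0.20, adjusted p 0.0905). Coro1a, an actin regulator of leukocytes, differed by 0.48 ± 0.16 (adjusted p 0.115). None of these genes overlapped between the groups.

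Lists of genes that work with the members were set beside them. How the calls of these partners depend on single arrays or on the processing was not examined. All 4 measured partners of Cybb in the phagocyte oxidase rose at withdrawal: Rac2 by 1.21 ± 0.25, Cyba by 1.20 ± 0.19, Ncf4 by 1.15 ± 0.20 and Ncf1 by 0.85 ± 0.16 (adjusted p 0.0117, 0.00240, 0.00487 and 0.00853). The kinases and phosphatases of Fc receptor and DAP12 signalling rose in 4 of 7 and fell in 0: the phosphatase Ptpn6 by 0.77 ± 0.16, Vav1 by 0.48 ± 0.09, and Btk and Syk from control means at the floor. Their fitted differences of 1.08 ± 0.21 (Btk) and 0.60 ± 0.15 (Syk) are therefore only bounds on the rise. The list medians were 1.18 and 0.48, against -0.01 over all genes. Of 6 Toll-like receptor genes and adaptors 1 rose, Tlr7, a sensor of RNA, by 0.88 ± 0.22 (adjusted p 0.0372), with a list median of 0.24. Tlr7 read 2.37 to 2.69 in control and 3.54, 4.01 and 2.80 at withdrawal.

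Macrophage transcription factors other than Spi1 did not rise: 0 of 6 rose and Cebpb, a factor of myeloid and many other cells, fell by 0.57 (SE 0.11, adjusted p 0.0106). The list median was 0.26. Among 7 ligands of member receptors 0 rose and 1 fell. It was Il34, a ligand of Csf1r, which read 6.13, 6.06, 6.29 and 6.26 in control and 5.46, 5.75 and 5.47 at withdrawal and fell by 0.63 (SE 0.13, adjusted p 0.0131). Csf1, the other ligand of Csf1r, read 3.07 to 3.71 in control and 3.48 to 3.63 at withdrawal (0.15 ± 0.22, adjusted p 0.798). The receptor was thus higher at withdrawal, 1 of its ligands was lower and the other overlapped between the groups. Gas6, a ligand of Axl and Mertk, differed by 0.42 ± 0.12 (adjusted p 0.0598) and Cx3cl1 by 0.53 ± 0.19 (adjusted p 0.137).

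Markers of other white blood cells did not pass at withdrawal. None of the 5 monocyte, 9 neutrophil, 5 dendritic cell, 5 T cell, 3 B cell, 4 NK cell and 5 mast cell markers measured rose or fell. The summed level of a list, as log2, was 6.35 to 6.65 in control and 6.50 to 6.83 at withdrawal for monocytes, and 4.58 to 5.32 and 5.23 to 5.58 for neutrophils. The T cell sums did not overlap between the groups. The sum was 4.53 to 4.83 and 4.79 to 5.0 for dendritic cells, 3.52 to 3.98 and 4.18 to 4.19 for T cells, 2.64 to 2.87 and 2.44 to 3.04 for B cells, and 3.43 to 3.66 and 3.48 to 3.70 for NK cells. Mast cell genes summed to 4.56 to 5.29 in control and 5.22 to 5.72 at withdrawal, with Cpa3, a mast cell protease, higher without overlap (1.11 ± 0.42, adjusted p 0.177). S100a8 was also higher without overlap (1.56 to 3.16 in control, 3.32 to 4.38 at withdrawal). So were Mcpt4 (mast cell list), Ace (monocyte), Cd209a (dendritic cell) and Cd3g (T cell), where 8.15% of all genes were. Ly6c2, of the monocyte list, was lower without overlap (4.14 to 4.97 in control, 3.51 to 4.03 at withdrawal). All 3 B cell markers, 3 of 4 NK cell, 6 of 9 neutrophil, 2 of 5 mast cell, 2 of 5 dendritic cell and 1 of 5 T cell markers had means at the floor in every group, among them the neutrophil genes Ly6g and Csf3r. Chil3, a gene of monocytes, neutrophils and activated macrophages, read 3.83 in withdrawal replicate 2 and under the floor in the other 2.

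Genes of the gland's own cells were lower or did not pass. Of 7 adrenal cortex genes 4 fell at withdrawal, with a summed level of 12.73 to 12.75 in control and 12.22 to 12.35 at withdrawal. Of 6 endothelial genes 1 fell, and the sum was 9.53 to 9.61 in control and 9.05 to 9.20 at withdrawal. No medulla gene of 5 passed, with sums of 12.12 to 12.54 and 12.52 to 12.63, and no adipocyte gene of 3, with sums of 6.72 to 7.33 and 6.51 to 7.20. The part of these shifts in the members' differences was not tested.

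**Figure D3:**
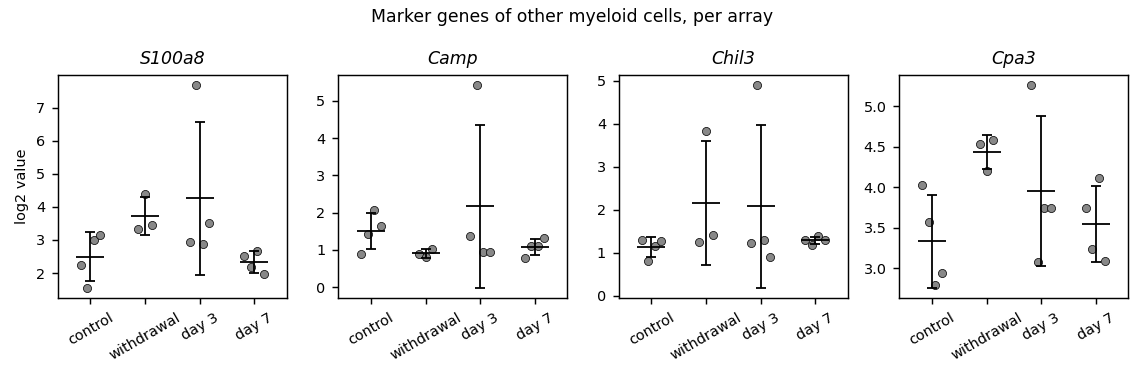
Deposited log2 level of the marker genes S100a8 and Camp (neutrophil), Chil3 (monocyte list) and Cpa3 (mast cell) on each of the 15 arrays, by group; each point is 1 array, the long bar the group mean and the whiskers the SD, and the y axes differ and do not start at 0. S100a8, Camp and Chil3 each have 1 high day 3 array, at 7.69, 5.43 and 4.91, and Cpa3 read 4.20 to 4.58 at withdrawal and 2.79 to 4.03 in control.

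At 3 days after the drug was stopped, 10 members were lower than at withdrawal and 0 were higher (limma, adjusted p under 0.05), where 0.886% of all genes fell and 1.37% rose. The mean was lower for 36 of 38, all except Cd14 and Itgam (Itgam -0.14 without day 3 replicate 2). For 18 members all day 3 arrays lay under all withdrawal arrays, which held for 5.73% of all genes. The fallers were 6 core identity genes (Adgre1, Csf1r, Aif1, Mpeg1, C1qa and C1qb), 1 activation gene (Ptafr) and 3 shared leukocyte genes (Lcp1, Laptm5 and Fcer1g). Class medians were -0.67 for core identity, -0.34 for activation and -0.67 for shared leukocyte genes, with -0.01 over all genes. The count of members depended on which arrays were kept. It was 0 without withdrawal replicate 2, where 22 members and 1349 of all genes were lower at an unadjusted p under 0.05. It was 2 without withdrawal replicate 1, 3 without day 3 replicate 1 or 3, and 5 without day 3 replicate 4. Without day 3 replicate 2, the array with the neutrophil genes, it was 11. Calls over all genes dropped too: the 190 falls became 79 without withdrawal replicate 2 and 125 without withdrawal replicate 1. The class medians without withdrawal replicate 2 were -0.68 (core identity), -0.36 (activation) and -0.54 (shared leukocyte).

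Csf1r read 5.19, 5.38, 5.45 and 5.35 at day 3, inside the control range, and fell by 0.66 (SE 0.13, adjusted p 0.0152). C1qb read 7.23, 7.58, 7.23 and 7.41, and fell by 0.80 (SE 0.16, adjusted p 0.0152). Adgre1 read 4.82, 4.80, 4.22 and 4.93 and fell by 0.72 (SE 0.15, adjusted p 0.0227). These 3 identity genes lay fully under withdrawal at day 3 and overlapped control. Mpeg1 read 5.73, 6.16, 5.61 and 5.65 at day 3. It fell by 0.98 (SE 0.21, adjusted p 0.0235) and still lay above every control array. Ptafr read 4.37, 4.43, 4.53 and 4.58, likewise between the groups, after a fall of 0.88 (SE 0.21, adjusted p 0.0399).

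Other members with large rises at withdrawal did not pass at day 3. Clec7a read 4.92, 6.42, 4.96 and 5.59, within and beyond the withdrawal range (-0.12 ± 0.34, adjusted p 0.930). Lyz2 read 9.16, 9.66, 9.15 and 9.51 (-0.31 ± 0.18, adjusted p 0.467). Wfdc17 read 6.92, 7.74, 6.69 and 7.14 (-1.01 ± 0.37, adjusted p 0.202). In all 3 genes the array with the neutrophil genes was the highest of day 3. Itgam read 3.61 there and 2.48 to 2.63 in the other day 3 arrays, and did not differ from withdrawal by more than its error (0.13 ± 0.25, adjusted p 0.900). Without that array the differences from withdrawal were -0.44 for Clec7a, -0.41 for Lyz2, -1.21 for Wfdc17 and -0.14 for Itgam. Neutrophils also express Itgam, Clec7a, Lyz2 and Itgb2, and the part of their RNA in these values was not tested.

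**Figure D4:**
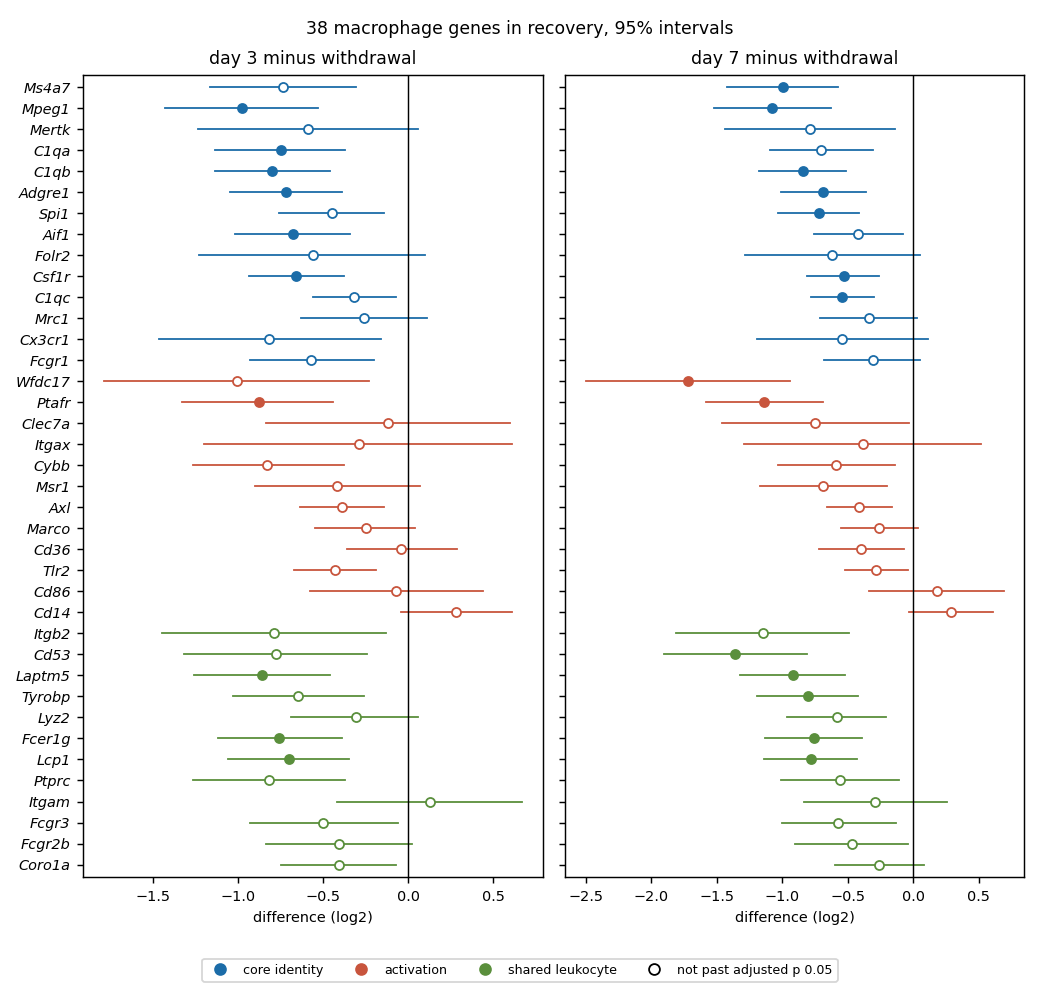
Difference of each member from withdrawal at day 3 (left) and at day 7 (right), 4 arrays each against the same 3 withdrawal arrays, in log2 units with 95% intervals from the limma model; filled points passed the threshold, colours give the class, and the x axes differ in range. Of 38 points 36 lie to the left of 0 in each panel, and Wfdc17 at day 7, at -1.72, is the farthest.

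At 7 days after withdrawal, 14 members were lower than at withdrawal and 0 higher (limma, adjusted p under 0.05), where 0.905% of all genes fell and 0.98% rose. All day 7 arrays lay under all withdrawal arrays for 20 members, against 5.89% of all genes. The fallers were 7 of 14 core identity genes (Adgre1, Csf1r, Spi1, Mpeg1, C1qb, C1qc and Ms4a7), 2 of 12 activation genes (Ptafr and Wfdc17) and 5 of 12 shared leukocyte genes (Lcp1, Cd53, Laptm5, Tyrobp and Fcer1g). Class medians were -0.65, -0.40 and -0.67 (activation -0.57 without day 7 replicate 3). Centring turned the split over all genes from 210 rising and 194 falling to 391 and 134, with 12 members falling. This comparison uses the same withdrawal arrays as the one at day 3. Without withdrawal replicate 2 the count was 0, with 26 members and 1302 of all genes lower at an unadjusted p under 0.05. It was 5 without withdrawal replicate 1 or without day 7 replicate 1, 2 or 4, and 16 without day 7 replicate 3. Over all genes the 194 falls became 75 without withdrawal replicate 2 and 119 without withdrawal replicate 1. The class medians without withdrawal replicate 2 were -0.62 (core identity), -0.44 (activation) and -0.59 (shared leukocyte).

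Wfdc17 read 6.11, 5.91, 7.51 and 6.11 at day 7 and fell by 1.72 (SE 0.37, adjusted p 0.0255), with 1 array, replicate 3, far above the others. Cd53 read 6.03, 5.37, 6.37 and 5.74 and fell by 1.36 (SE 0.25, adjusted p 0.0122). Ptafr read 4.64, 3.81, 4.39 and 4.07 and fell by 1.14 (SE 0.21, adjusted p 0.0118). All 3 lay fully under withdrawal. Spi1, which had not passed at day 3 (-0.45 ± 0.15, adjusted p 0.150), read 4.20, 4.30, 4.23 and 3.98 and fell by 0.72 (SE 0.15, adjusted p 0.0210). Its mean of 4.18 at day 7 was that of control. Between day 3 and day 7 no gene passed, Spi1 included.

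Members that had risen without falling back in this test included Clec7a (-0.75 ± 0.34, adjusted p 0.341), Mertk (-0.79 ± 0.30, adjusted p 0.240), Lyz2 (-0.58 ± 0.18, adjusted p 0.120) and Itgb2 (-1.15 ± 0.31, adjusted p 0.0763). Their differences pointed down. The 95% intervals reached from -1.46 to -0.03 for Clec7a and from -1.81 to -0.49 for Itgb2.

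Among the partners, Ncf4 fell by 1.18 (SE 0.20, adjusted p 0.00674) and Ncf1 by 0.72 (SE 0.16, adjusted p 0.0324) at day 3 against withdrawal. At day 7 they fell by 1.11 (SE 0.20, adjusted p 0.0108) and 0.69 (SE 0.16, adjusted p 0.0443). Of 4 oxidase partners 2 thus fell at each time and 0 rose. Btk read 1.91, 2.88 and 2.73 at withdrawal and passed as lower at both times (adjusted p 0.0241 and 0.0295). Its means of 1.53 at day 3 and 1.55 at day 7 were at the floor, so that the size of its fall has only a bound. Ptpn6 fell at day 3, by 0.78 (adjusted p 0.0200). Gas6 fell by 0.54 (SE 0.12, adjusted p 0.0255) at day 3 and by 0.55 (SE 0.12, adjusted p 0.0249) at day 7. Il34 read 5.25, 5.91, 5.59 and 5.56 at day 3, overlapping withdrawal (0.02 ± 0.13, adjusted p 0.980). It read 6.16, 6.22, 6.17 and 6.12 at day 7, a rise of 0.61 ± 0.13 from withdrawal (adjusted p 0.0266). No Toll-like receptor gene and no listed transcription factor passed against withdrawal at either time. The partner calls use the same withdrawal arrays as those of the members, and their dependence on single arrays was not examined.

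Set against control, 2 members were higher at day 3 and 0 were lower, where 0.0886% of all genes rose and 0.042% fell (19 and 9 genes, 18 and 35 after centring, 12 and 11 after a further quantile normalization). Ms4a7 read 6.85, 6.97, 6.60 and 7.12 at day 3 and was higher than control by 1.06 ± 0.19 (adjusted p 0.0434, limma). Ptafr was higher by 1.08 ± 0.19 (adjusted p 0.0458). Both calls are near the threshold, and each held in 1 of the 8 fits that left out 1 array: Ms4a7 without day 3 replicate 3 and Ptafr without control replicate 2. Without day 3 replicate 3 Itgb2 also passed, and no member passed when any single one of the other 6 arrays was left out. For 15 members all day 3 arrays lay above all control arrays, against 2.75% of all genes. At an unadjusted p under 0.05, 18 members were higher and 1 lower, against 1133 and 1020 of 21439 genes. Lyz2 (0.88 ± 0.16, adjusted p 0.0546), Itgb2 (1.48 ± 0.29, adjusted p 0.0625) and Clec7a (1.47 ± 0.31, adjusted p 0.0733) lay just outside the threshold. Without day 3 replicate 2 these differences were 0.78, 1.26 and 1.15. The class medians were 0.19 for core identity, 0.24 for activation and 0.44 for shared leukocyte genes. Without day 3 replicate 2 the median over all members went from 0.26 to 0.21, and 15 members again lay above all control arrays.

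At day 7 no member differed from control in either direction (limma, adjusted p under 0.05), where 0.014% of all genes rose and 0.00466% fell. At an unadjusted p under 0.05, 11 members were higher and 0 lower, against 693 and 582 of 21439 genes. For 7 members (Mpeg1, Ms4a7, Clec7a, Ptafr, Itgb2, Tyrobp and Lyz2) all day 7 arrays lay above all control arrays, against 1.75% of all genes. Lyz2 read 9.18, 8.86, 9.55 and 8.81 at day 7 and 8.34 to 8.71 in control. Itgb2 read 4.73, 4.21, 5.31 and 4.59, with 3.47 to 3.84 in control (1.11 ± 0.29, adjusted p 0.545). Clec7a read 5.04, 4.12, 5.40 and 4.83, the lowest array just above the highest control array at 4.11. The median over the members was 0.22, and 0.21 without day 7 replicate 3. Between day 7 and day 3, 0 members and 0% of all genes passed in either direction. At an unadjusted p under 0.05, 0 members were higher and 2 (Cd36 and Cd53) lower at day 7, where 786 and 730 of 21439 genes were. The 2 are near the share over all genes and are not taken as a result. The member median was -0.06.

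The classes can be followed on single arrays as the mean over their genes. Core identity genes averaged 5.11 to 5.28 on the control arrays, 5.85 to 6.21 at withdrawal, 5.27 to 5.55 at day 3 and 5.29 to 5.57 at day 7. Activation genes averaged 4.07 to 4.41, 5.03 to 5.22, 4.59 to 4.93 and 4.40 to 4.84. Shared leukocyte genes averaged 5.25 to 5.26, 6.20 to 6.66, 5.58 to 6.22 and 5.37 to 6.05. In each class every withdrawal array was above every control array. At day 3 the core identity mean met the control range at its lower end, while all activation and shared leukocyte means lay above control. At day 7 every core identity mean lay just above control (5.29 or more, against 5.28 or less). The lowest activation mean, 4.40, was just under the highest of control, 4.41. Gaps this small do not order the classes. The core identity group mean was 5.40 at day 3 and 5.39 at day 7. The median difference from control at day 7 was 0.10 for core identity and 0.26 for activation genes. The shared leukocyte means at day 7 again all lay above control. The core identity and activation medians at withdrawal, 0.68 and 0.65, were close, although the activation genes ran from -0.38 (Cd14) to 2.40 (Wfdc17) and the core identity genes from 0.21 (Fcgr1) to 1.80 (Ms4a7). No test was made between the classes, since they were drawn up with results of these data known.

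**Figure D5:**
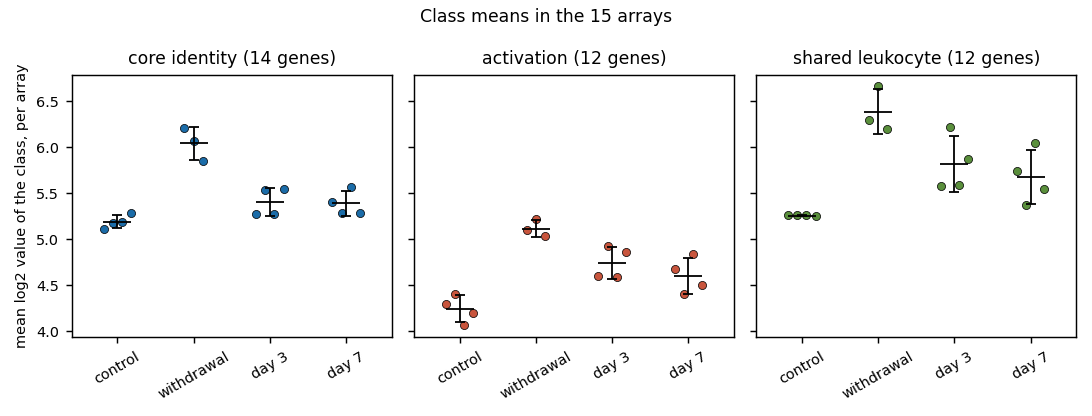
Mean log2 level over the 14 core identity, 12 activation and 12 shared leukocyte genes on each of the 15 arrays, by group; each point is 1 array, the long bar the group mean and the whiskers the SD. All 3 classes are highest at withdrawal, and the day 3 and day 7 arrays lie between withdrawal and control or reach into them.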

How the data were processed

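Whole adrenal RNA was hybridized to 15 Affymetrix arrays, 1 per sample. The authors' deposited values are log2 levels made by RMA with oligo, as the submitters' processing notes list; versions and filters: not given in the sources used here. RMA levels the arrays' distributions, so that a value is relative to the rest of its array, and RMA compresses differences near the floor. Of 32736 probe sets, the 22399 with 1 symbol in the platform annotation were used (1607 had several, 8730 none). Entrez identifiers of 22261 matched RefSeq genes, 138 did not, and 0 symbols changed. Of 807 genes with several probe sets, the one with the highest mean was kept.

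All 15 arrays entered 1 limma 3.58.1 model (R 4.3.3; lmFit, eBayes) with 4 group means and 6 contrasts. Benjamini-Hochberg adjustment ran over the 21439 genes of each contrast, and an adjusted p under 0.05 passed. Differences carry the model's standard error, and the number of arrays limits the precision. The procedure was tested on simulated data with noise drawn independently for each gene. Arrays on which many members stand high or low together were not simulated. No pair of arrays was identical. Titles give the same replicate numbers in each group, but of 21 same-numbered pairs 0 had deviations correlated above 0.1 (-0.138 to 0.06), so the numbers were not taken as pairs.

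The members, the classes and the other gene lists were chosen with earlier results of these data known. All 38 members are named. Of each partner list, genes past the threshold are named, up to 4 per contrast; Csf1, Cx3cl1, and Gas6 at withdrawal were named after their values were seen. All 38 members passed the filter on dim genes, which kept 12398 genes; Marco passed through the withdrawal group alone. The alternatives were other probe set rules, this filter, centring, quantile normalization, trend and robust variance, a replicate block, fits of the 2 groups compared and leaving out each array. Listed genes without a probe set of 1 symbol were not analysed here.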

Additional observations from a re-analysis of the deposited data

Results flagged for a closer look

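Among 123 sets of 4 values (a member or a class mean in a group of 4 arrays), 10 had 1 array far from the other 3, with a gap to the nearest that made up most of the group's range (Dixon's 95% critical value); chance gives about 1 in 20. The withdrawal group, with 3 arrays, was not examined this way. In control, replicate 2 read 6.45 for Cybb with 5.53 to 5.66 in the others, 6.48 for Wfdc17 with 5.40 to 5.54, and 7.65 for Cd36 with 8.03 to 8.06. Control replicate 3 read 1.71 for Cd86 with 2.15 to 2.19 in the others. At day 3, replicate 2, the array with the neutrophil genes, read 3.61 for Itgam with 2.48 to 2.63 in the others and 6.50 for Lcp1 with 5.91 to 5.98. Day 3 replicate 1 read 5.05 for C1qc with 5.33 to 5.37 in the others and 5.37 for Axl with 5.62 to 5.66. At day 7, replicate 3 read 7.51 for Wfdc17 with 5.91 to 6.11 in the others, and replicate 2 read 4.89 for Fcgr1 with 4.75 to 4.76.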

How the results depend on the processing

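No difference of a member that passed changed sign under any alternative run. The count of 23 rises at withdrawal was 18 to 27 under the alternatives that kept all arrays and 15 to 22 when 1 array was left out, and 14 of the 23 calls held in all 7 such fits; those of Adgre1, Csf1r, Spi1, Mertk, Aif1, Clec7a, Cybb, Msr1 and Ptprc did not. The replicate block ended the calls of Csf1r (adjusted p 0.0587), Aif1 (0.0996), Cybb (0.0642), Msr1 (0.108) and Ptprc (0.0663). For day 3 against withdrawal the 10 falls became 9 to 14 with the filter, centring, quantile normalization or trend and robust variance, 1 with the replicate block, 0 with only the 2 groups compared (25 at an unadjusted p under 0.05) and 0 to 11 without 1 array. For day 7 against withdrawal the 14 falls became 12 to 15, 6 with the replicate block, 0 with only the 2 groups (26 unadjusted) and 0 to 16 without 1 array. None of these falls held in every fit without 1 array. Over all genes the 190 falls at day 3 against withdrawal became 91 with the replicate block and 52 with only the 2 groups (1418 unadjusted). The 194 falls at day 7 against withdrawal became 88 and 60 (1527 unadjusted). For day 3 against control the 2 rises became 4 with the filter, 5 with trend and robust variance, 1 with quantile normalization (Ptafr lost), 0 with the replicate block, 0 with only the 2 groups and 0 to 2 without 1 array. The fits of 2 groups have fewer arrays to estimate the spread, and the cause of the other changes was not tested. Over all genes at withdrawal, the 534 rises and 387 falls became 300 and 244 with the replicate block and 311 and 213 with only the 2 groups. The block moved calls although same-numbered arrays did not deviate together. The core identity median at withdrawal ran from 0.63 to 0.83 without 1 array (0.83 without withdrawal replicate 3), and the activation median at day 7 against withdrawal from -0.57 to -0.38 (-0.57 without day 7 replicate 3). Signal limits Marco, Fcgr2b, Itgam and Cd86, whose levels lay near the floor, where a fall has no room.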
